A study of Mus musculus with 386 samples.

Results

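Brain was compared with kidney, liver and lung of the same set of mice. The tissue was read from the sample labels, and all 85 brain arrays of the 386 arrays in the series were used, against 102 kidney, 101 liver and 98 lung arrays. RNA levels came from the Affymetrix Mouse Gene 1.1 ST array, which reports 1 log2 signal per transcript cluster, and 18820 genes had a cluster with a single symbol. The mice were 23 days old and of both sexes (44 female and 41 male brain arrays). They belonged to the inbred strains CAST (CASTxCAST, 8 brain arrays), PWK (PWKxPWK, 6) and WSB (WSBxWSB, 11). The reciprocal F1 crosses, written with the dam first, were CASTxPWK (10), PWKxCAST (10), CASTxWSB (8), WSBxCAST (11), PWKxWSB (8) and WSBxPWK (13). The labels name no transgene and no treatment. The RNA came from about 25 mg of powdered tissue, so each brain value averages over many cell types. Which regions of the brain each sample held is not stated. Each array of a cross and tissue came from its own animal, and 67 of the 111 animals gave all 4 tissues.

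Brain tissue is built mainly from neurons, which pass signals at synapses by releasing transmitter from vesicles onto receptors, and from glia. Astrocytes clear transmitter and ions, oligodendrocytes wrap axons in myelin, and microglia are the resident macrophages. Its capillaries form the blood-brain barrier, and it lacks the epithelial sheets that carry out filtration, secretion and intermediary metabolism in kidney, liver and lung.

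The label was borne out by markers of neurons. The median over 15 measured neuron markers lay between 11.97 and 12.44 on every brain array and reached at most 7.03 on any other array. Each brain array correlated with the other brain arrays at a median r between 0.986 and 0.994, and at most 0.794 with an array of another tissue. Some arrays carried RNA typical of other tissue. WSBxWSB brain replicate 1 was the highest brain array for 10 of the 12 genes of the olfactory mucosa that were looked up after the spread had been seen. Omp, the olfactory marker protein, stood at 10.77 there against a brain median of 7.75, and Gpx6 at 11.63 against 4.70. Liver plasma protein genes also spread widely between brain arrays. Alb, encoding serum albumin, ranged from 4.02 through a median of 7.81 to 11.33, with an SD of 2.04 within crosses, where the median gene had 0.166. Growth hormone (Gh) reached 9.61 in PWKxWSB brain replicate 1 against a median of 4.95. Among the comparison tissues, 14 lung and 2 kidney arrays had a median of the skeletal muscle markers above 8. On 1 brain array and 1 liver array the sex genes went against the label, and both arrays were kept. The part of these arrays in any single gene's value was not tested beyond leaving them out. Without WSBxWSB brain replicate 1 the counts given next became 2903 and 3225, and without the arrays rich in muscle genes 2903 and 3223.

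With all crosses weighted equally, 2904 genes (15.4% of all genes tested) were higher in brain than in the mean of the other tissues and 3220 (17.1%) were lower. A gene was called when its limma adjusted p was under 0.05 and its difference was at least 1 log2 unit. The size condition did most of the selecting, since 17478 genes (92.9%) passed the adjusted p alone. The high side reached further. Differences of at least 3 log2 units were found for 1070 higher and 464 lower genes, and differences of at least 5 for 329 higher and 44 lower genes. The median difference over all genes was -0.12. On the high side, the lowest brain array lay above every other array for 1937 genes (10.3% of all genes tested). On the low side, the highest brain array lay below every other array for 907 (4.82%). Set against each tissue on its own, 1982 genes (10.5%) were called higher in brain in all 3 comparisons, which was 68.3% of the genes called higher. Fewer, 1105 (5.87%), were called lower in all 3, which was 34.3% of the genes called lower. Low genes thus often rested on part of the comparison: 663 were lower than only 1 of the tissues, which was lung for 257, liver for 242 and kidney for 164. At the threshold itself, Pard6a and Ky lay just inside at 1.0 and Lhx5 and 2610301B20Rik just outside at 1.0, and on the low side Deptor and Bcl2l14 lay inside at -1.0 and Tmem260 and Itgb7 outside at -1.0, alike at that rounding.

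**Figure D1:**
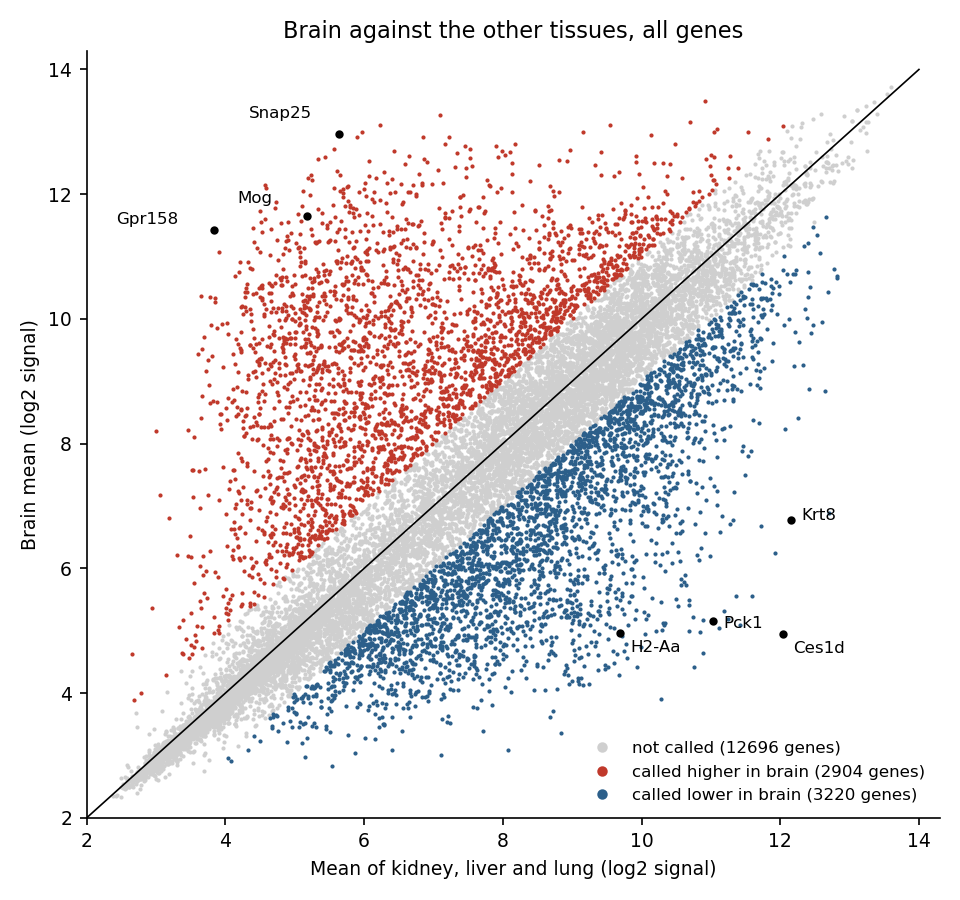
Brain mean against the mean of kidney, liver and lung for each of 18820 genes, both in log2 signal, with 2904 genes called higher in red, 3220 called lower in blue and the line of equality in black. Red genes fill the upper left up to Gpr158 (7.59 above the others) and blue genes reach down to Ces1d (-7.10).

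The highest difference belonged to Gpr158, an orphan receptor of neurons. Its signal ran from 11.07 through a median of 11.44 to 11.71 over the 85 brain arrays and from 3.22 to 4.86 over all others. No brain array came near the other tissues, and the difference was 7.59 ± 0.03 (SE). Nefl, the light neurofilament chain of axons, ran from 11.83 through 12.14 to 12.45 against 3.45 to 7.13 elsewhere, a difference of 7.58 ± 0.05 (limma adjusted p = 2.35e-317). Sv2b, a glycoprotein of synaptic vesicles, ran from 11.74 through 12.09 to 12.38 against at most 6.13, a difference of 7.51 ± 0.03. For Gpr158 and Sv2b the adjusted p was listed as 0, below the smallest number the software stores, and a called gene without a printed p met the threshold of 0.05. Snap25, Cplx1 and Kif5a, which are among the neuron markers, followed with differences of 7.33 ± 0.06, 7.22 ± 0.04 and 7.16 ± 0.03. The rest of the top 12 were Cadps, a priming factor of dense-core vesicles (7.23 ± 0.03), Nrsn1 (7.16 ± 0.03), the calcium/calmodulin kinase Camk2a (7.15 ± 0.03), Lgi1 (7.12 ± 0.05), the neuronal calcium sensor Hpca (7.08 ± 0.03) and the glutamate receptor partner Neto1 (7.06 ± 0.03). These 12 were picked as the highest among genes called higher in each of the 9 crosses.

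**Figure D2:**
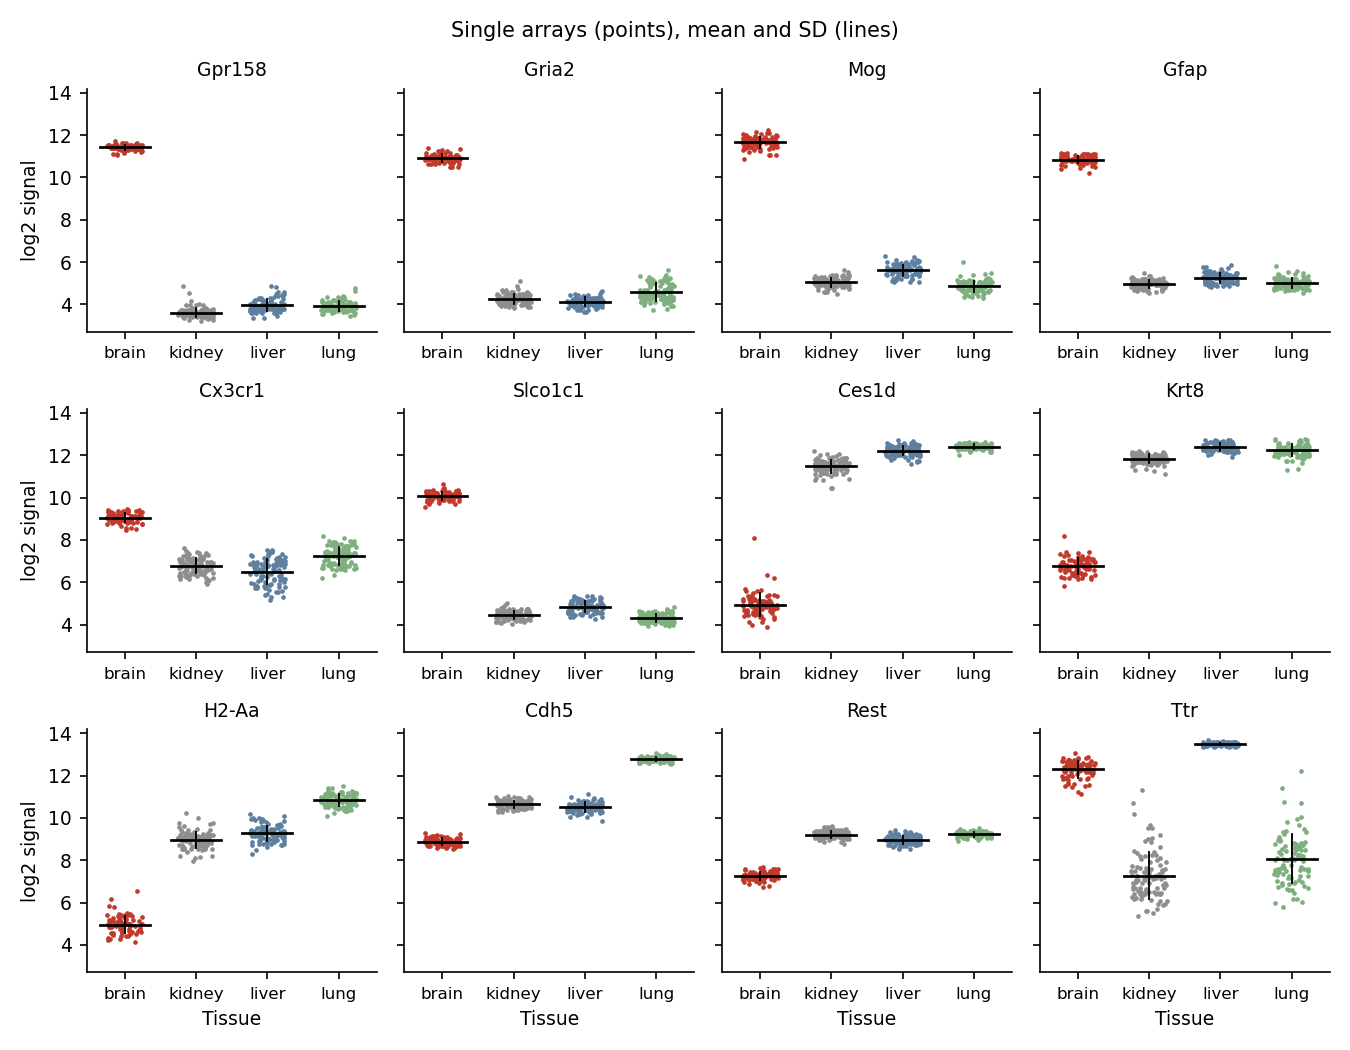
log2 signal of 12 genes on every array, by tissue, with horizontal lines for means and vertical lines for SD (85 brain, 102 kidney, 101 liver and 98 lung arrays). Gpr158, Gria2, Mog, Gfap and Slco1c1 do not overlap with the other tissues; Ttr in brain (11.11 to 13.05) lies between liver and the other organs, and the single high brain point of Ces1d is 8.10.

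The machinery of the synapse was higher in brain almost throughout. All 18 measured genes of vesicle release were called higher, with a median difference of 5.32 and no overlap with other tissues for any of them, against 15.4% and 10.3% of all genes. Beside Sv2b they included Napb, which recycles SNARE complexes (6.08 ± 0.03), and the calcium sensor Syt1 (5.68 ± 0.04). The vesicle SNARE Vamp2 had the smallest difference of the list at 2.82 ± 0.02. On the receiving side, 21 of 21 glutamate receptor genes were called higher (median 4.94). The metabotropic receptor Grm3 led at 6.82 ± 0.03, followed by the AMPA subunit Gria2 at 6.59 ± 0.03. Gria2 ran from 10.48 through 10.89 to 11.37 in brain and from 3.63 to 5.61 elsewhere, with no overlap. The kainate subunit Grik5 (2.96) and the NMDA subunit Grin2d (2.45) were lowest in the list. Of the GABA and glycine receptor genes 16 of 16 were called higher (median 5.59), led by Gabra2 (6.71 ± 0.03) and the glycine receptor subunit Glrb (6.62 ± 0.03). The exception in size was Gabra6, a subunit of cerebellar granule cells, at 1.43 ± 0.06. It was the only member of that list not called in every cross, and its brain arrays spread from 3.53 through a median of 4.68 to 7.85. Cbln3, another granule cell gene, spread from 4.78 through 5.93 to 8.68. How much cerebellum each sample held is not stated, and its part in these 2 spreads was not tested.

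Genes that make and load transmitters followed the same direction with an exception. Of 17 measured, 15 were called higher (median 4.05). The share called higher over all genes, for this and the lists that follow, was 15.4%. The vesicular glutamate transporter Slc17a7 stood at 12.71 to 13.10 on brain arrays, a difference of 7.02 ± 0.04, and Gad2, which makes GABA, at 6.46 ± 0.02. Genes of small nuclei spread widely: the dopamine genes Th (synthesis, 4.07) and Slc6a3 (reuptake, 3.09) lay far from the threshold, and Tph2, for serotonin synthesis in the raphe (1.92), and Chat, for acetylcholine (1.55), nearer to it. Ddc, the decarboxylase that makes dopamine and serotonin, was lower in brain, at -1.53 ± 0.04 (adjusted p = 8.34e-147). Its level was 8.08 in brain, 11.18 in kidney and 11.14 in liver but 6.54 in lung, so it was higher in brain than in lung, and without kidney or without liver in the comparison it was not called (-0.76 each). The serotonin transporter Slc6a4 differed by -0.02 and was not called. Postsynaptic scaffold genes (17 of 17, median 4.72) and sodium and calcium channel genes (18 of 18, median 4.86) were all called higher, from Camk2a and the channel subunits Cacng3 (7.03) and Scn2a (7.02) down to the scaffold gene Shank2 (1.56). Of 19 genes for the axonal cytoskeleton and transport 19 were higher (median 5.03), with Ina, a neurofilament partner, at 6.92 and Mapt, encoding tau, at 1.82. Among 17 neuropeptide genes 13 were higher (median 2.38). Somatostatin (Sst) was highest at 5.72 ± 0.03, at 11.11 to 12.11 on brain arrays against at most 7.07 elsewhere. Peptides made in the hypothalamus varied: the releasing hormones Trh (2.38) and Crh (1.77) were called higher in every cross, whereas Hcrt at 0.71, Oxt at 0.62, Avp at 0.49 and Pomc at 0.33 were not called. A brain sample of mixed cells cannot tell fewer cells from less RNA per cell, which holds for every gene here.

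**Figure D3:**
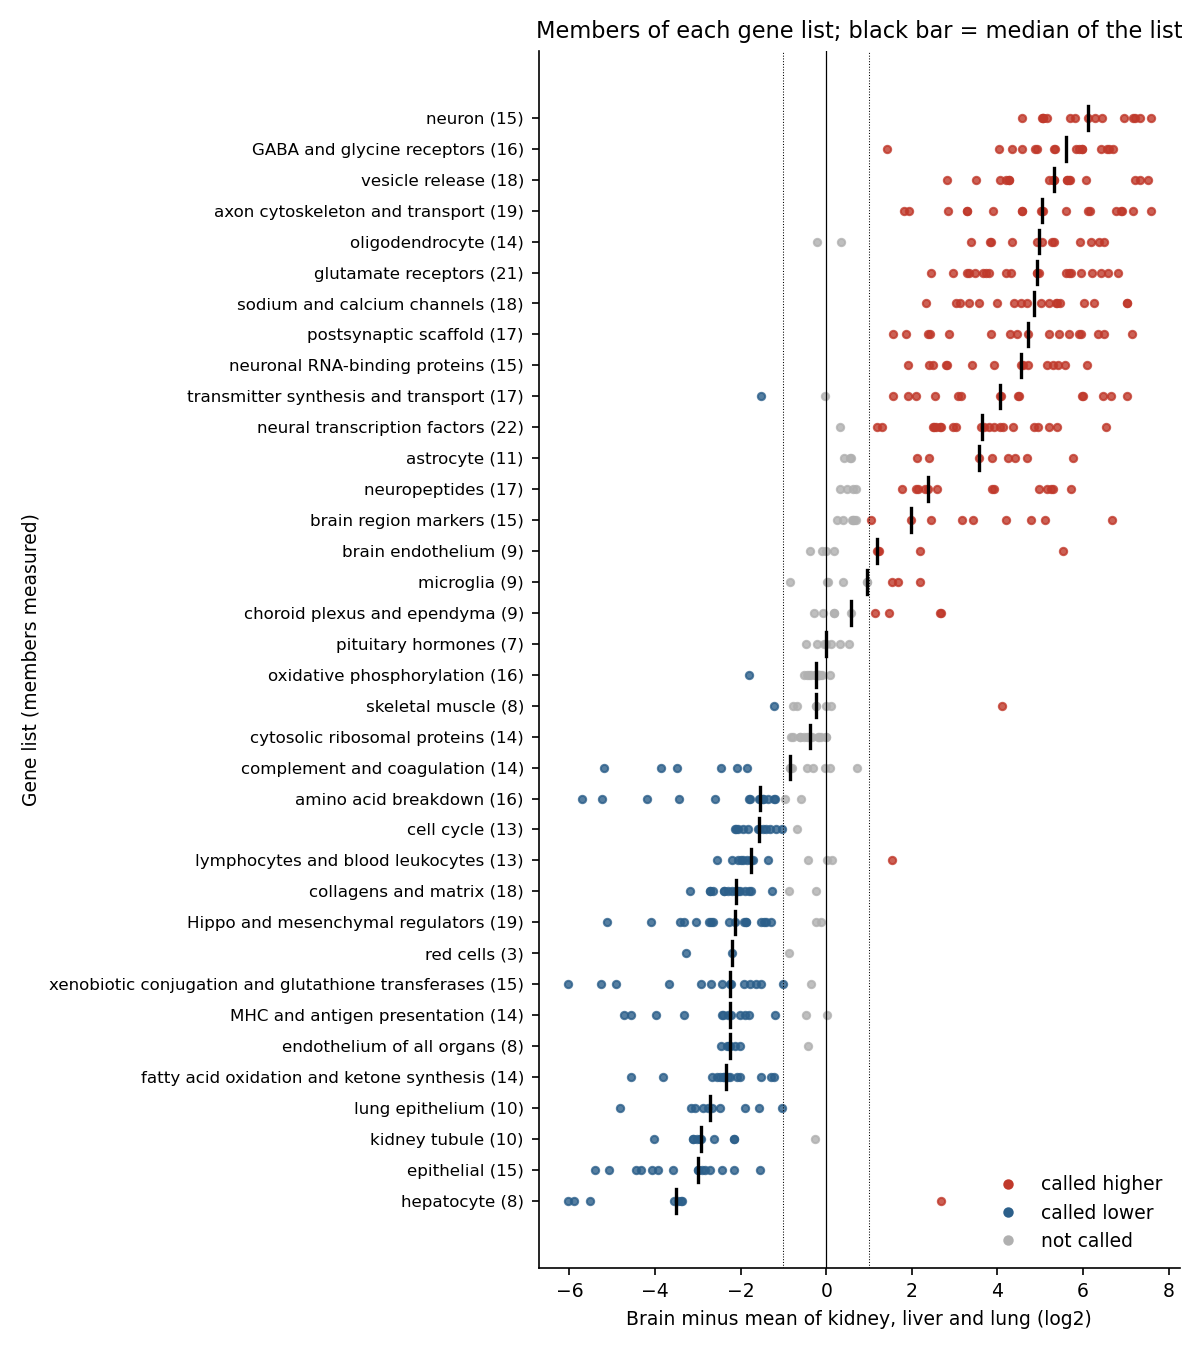
Brain minus the mean of the other tissues, in log2, for each measured member of 36 gene lists (points), with the list median as a black bar and dotted lines at the threshold of 1. Lists of neurons and synapses lie to the right, up to the neuron list (median 6.12), and epithelial (median -3.0) and hepatocyte (median -3.51) lists to the left.

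Glial genes differed by cell type. Of all genes tested, 15.4% were called higher. Myelin genes were high: 12 of 14 oligodendrocyte genes were called higher (median 4.98), led by Mog (6.48 ± 0.03) and Mag (6.38 ± 0.03), both proteins of the myelin sheath. Mog ran from 10.85 through 11.68 to 12.23 in brain and from 4.33 to 6.29 elsewhere, without overlap. Genes of the precursor cells differed among themselves: Gpr17, of committed precursors, was called higher at 4.92, while Cspg4 at 0.35 and Pdgfra at -0.23 were not called. Of 11 astrocyte genes 8 were higher (median 3.57). Gfap, the astrocyte intermediate filament, ran from 10.21 through 10.84 to 11.18 against at most 5.85 (difference 5.77 ± 0.03), and the glutamate transporter Slc1a2 was 4.70 ± 0.02 above the others although liver reached 10.49 on average. The other 3 missed the threshold, among them glutamine synthetase (Glul) at 0.41 with a brain level of 12.53. Microglial genes were the least distinct: 3 of 9 were called, the fractalkine receptor Cx3cr1 at 2.19 ± 0.04 (adjusted p = 4.06e-171), Siglech at 1.67 ± 0.03 and the purine receptor P2ry12 at 1.53 ± 0.04. Csf1r, the receptor that macrophages of all organs carry, stood at 10.23 in brain, between liver at 9.74 and lung at 10.68 and beside kidney at 10.21, a difference of 0.03 (adjusted p = 0.119). Tmem119 was at 0.05, Aif1 at 0.39 and Olfml3 at -0.84. Trem2 (0.96) and Gpr34 (0.945) lay just under the threshold and were not called.

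Vessel genes split between the barrier and the general endothelium. Of 9 genes of brain capillaries 5 were higher (15.4% of all genes were higher), above all the thyroid hormone and organic anion carrier Slco1c1. It ran from 9.56 through 10.08 to 10.64 in brain and stayed at or under 5.37 elsewhere, a difference of 5.53 ± 0.03. The amino acid carrier Slc7a5 (2.20) and the glucose carrier Slc2a1 (1.24) followed, while Cldn5, a tight junction gene, was at -0.39 and not called. Of 8 genes that endothelium carries in all organs 7 were lower (17.1% of all genes were lower), with a median of -2.25. Cdh5, the adhesion protein of endothelial junctions, ran from 8.53 through 8.88 to 9.27 in brain and from 9.85 to 13.07 elsewhere, a difference of -2.45 ± 0.01 with no overlap. Lung had the highest level of that gene at 12.78. In the choroid plexus, which makes cerebrospinal fluid, Ttr (transthyretin) was higher by 2.68 ± 0.10 (adjusted p = 2.16e-85) and the transcription factor Otx2 by 2.65, and 4 of 9 genes of that list were called. Ttr is also a liver product: liver stood at 13.49, brain at 12.30, lung at 8.06 and kidney at 7.28.

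Regulators of gene expression changed as broadly as the synapse. All 15 measured neuronal RNA-binding proteins (median 4.56) and 21 of 22 neural transcription factors (median 3.64) were called higher, against 15.4% of all genes. Both lists, like the others, were chosen with earlier results of these data known. Celf4 (6.09 ± 0.03) and Rbfox1 (5.57), which steer splicing, led the first group, and Tbr1 of cortical glutamatergic neurons (6.54 ± 0.03) and Myt1l (5.40) the second. In Emx1, a cortical factor, the difference was 0.32. The repressor REST silences neuronal genes outside the nervous system, and PTBP1 holds back neuronal splicing there. Rest ran from 6.73 through 7.26 to 7.67 in brain and from 8.53 to 9.62 elsewhere, a difference of -1.88 ± 0.02 (adjusted p = 1.15e-256) with no overlap. Ptbp1 stood at -1.93 ± 0.01 (adjusted p = 1.34e-313), while its neuronal relative Ptbp2 was higher by 2.41 ± 0.03 (adjusted p = 2.96e-255). Other regulators of epithelia and mesenchyme were low too: 17 of 19 in a list with Rest and Ptbp1 were called lower (median -2.12). The share over all genes was 17.1%. Hnf4a (-5.12 ± 0.05) and Gata6 (-4.10) led the list. Hnf4a, a factor of liver and kidney epithelium, was at 5.39 in brain and 6.36 in lung but above 12 in kidney (12.55) and liver (12.65).

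Promoter letters were looked up because REST binds a long element with a fixed core. RefSeq windows of 300 bases (250 before to 50 after the start, GRCm38.p6, from the reference strain and not the strains studied) were matched for 14739 of the 18820 genes. The core, GCACC followed by any 2 bases and GGACAGC, was searched on both strands and occurred in 12 windows, 0.0814% of all. It occurred in 10 of 2208 windows of genes called higher (0.453%) and in 1 of 2504 of genes called lower (0.0399%). The genes called higher were Gria2, Gad2, Ogdhl, Hrh3, Ttc9b, Osbp2, Htr5a, Scamp5, Fbll1 and Actn2. Lhx3 was not called and Taok3 was lower (-1.37). The windows below show the match for the 2 receptor and transmitter genes described above, for the brain form of a mitochondrial enzyme subunit (Ogdhl), for the vesicle gene Scamp5 and for Taok3, with the core in capitals on the strand of the gene.
Gria2 (chr3:80802985-80803014, minus strand): accaaagcGCTGTCCGCGGTGCtaaaatcg
Gad2 (chr2:22622157-22622186, plus strand): ctgtggtaGCACCCTGGACAGCgcgttccg
Ogdhl (chr14:32321910-32321939, plus strand): ggaggtcaGCACCTCGGACAGCgagggccg
Scamp5 (chr9:57468189-57468218, minus strand): aatatttaGCACCACGGACAGCtcctgcaa
Taok3 (chr5:117120153-117120178, plus strand): gcggagccGCACCTCGGACAGCagca
Gria2 holds the core in the opposite orientation and the others in the orientation of the gene. The matches are descriptions of letters, and binding was not measured.

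Other motifs were less uneven, and all were chosen after the differences had been seen. A form with TTCA before the core and its last C dropped matched 2 windows, 1 of a gene called higher and 1 of a gene not called. A form with TTCA before and GCC after the core matched 1 window, of a gene not called, and 0 of the 2208 windows of genes called higher. Both forms overlap the core. The HNF4 letters CAAAGTCCA occurred in 1.16% of the windows of genes called lower, 0.362% of those called higher and 0.522% of all. The HNF1 letters, GTTAAT and ATTAAC with any base between, matched 1 window. The GC box GGCGGG occurred in 66.0% of higher, 54.4% of lower and 52.8% of all windows, and the TATA box TATAAA in 9.78%, 13.9% and 13.8%. The cAMP response element TGACGTCA occurred in 3.31% of higher, 1.48% of lower and 2.77% of all windows. The E-box CACGTG (9.6%, 8.95% and 9.57%) and the octamer ATGCAAAT (1.72%, 2.08% and 1.93%) varied little. Windows of brain-high genes were richer in CpG: 62.4% had an observed over expected CpG ratio above 0.6, against 43.3% of the windows of brain-low genes and 52.9% of all. These shares carry no test.

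MicroRNA genes, which yield short RNAs that repress messages through the seed at bases 2 to 8, included a run of neighbours that were high in brain. The array clusters lie over the hairpin genes, so the signal includes precursor transcripts and is not a measure of the mature miRNA. Of 303 measured miRNA genes 31 were called higher (10.2%) and 11 lower (3.63%), below the 15.4% and 17.1% of all genes. The mature sequences of the genes that the account turns on are printed with the seed in capitals (RefSeq, GRCm38.p6).
miR-9-5p, of Mir9-2 (chr13:83738821-83738843, plus strand): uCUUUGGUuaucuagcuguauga
miR-382-5p, of Mir382 (chr12:109733781-109733802, plus strand): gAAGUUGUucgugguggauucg
miR-134-5p, of Mir134 (chr12:109734145-109734166, plus strand): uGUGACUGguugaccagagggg
miR-384-5p, of Mir384 (chrX:105344332-105344354, minus strand): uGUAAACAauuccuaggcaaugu
miR-30a-5p, of Mir30a (chr1:23272274-23272295, plus strand): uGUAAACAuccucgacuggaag
Mir9-2 is a gene of neural progenitors and neurons. It ran from 5.99 through 7.26 to 7.81 in brain and from 2.64 to 3.82 elsewhere, a difference of 4.12 ± 0.02 with no overlap. Mir9-1, which yields the same mature sequence, was higher by 1.43 ± 0.03. The last 2 sequences share a seed, yet Mir384 was higher in brain by 2.02 ± 0.04 and Mir30a was lower at -1.16 ± 0.04.

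The run lies in the imprinted Dlk1-Meg3 domain of chromosome 12, whose miRNAs are made from the maternal copy. It held 29 measured miRNA genes between positions 109709060 and 109743496 (GRCm38.p6), of which 20 were called higher and 0 lower, and 9 were not called; the run was chosen after its values were seen. The median difference in the run was 1.20 (log2), against -0.12 for the other 274 miRNA genes, of which 11 were called higher. Mir382 (3.09 ± 0.05) and Mir134 (2.71 ± 0.04) were highest, and 8 of the 29 were called in every cross. Mir382 ran from 5.78 through 7.29 to 8.26 in brain and reached 6.70 elsewhere, so single arrays overlapped. The long RNAs Meg3 (3.98 ± 0.05) and Rian (2.44 ± 0.05) of the domain were also higher, as was Dlk1 (2.37 ± 0.05), which is read from the paternal copy. Meg3 ranged from 9.02 to 11.83 in brain and Rian from 4.88 to 8.59.

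**Figure D4:**
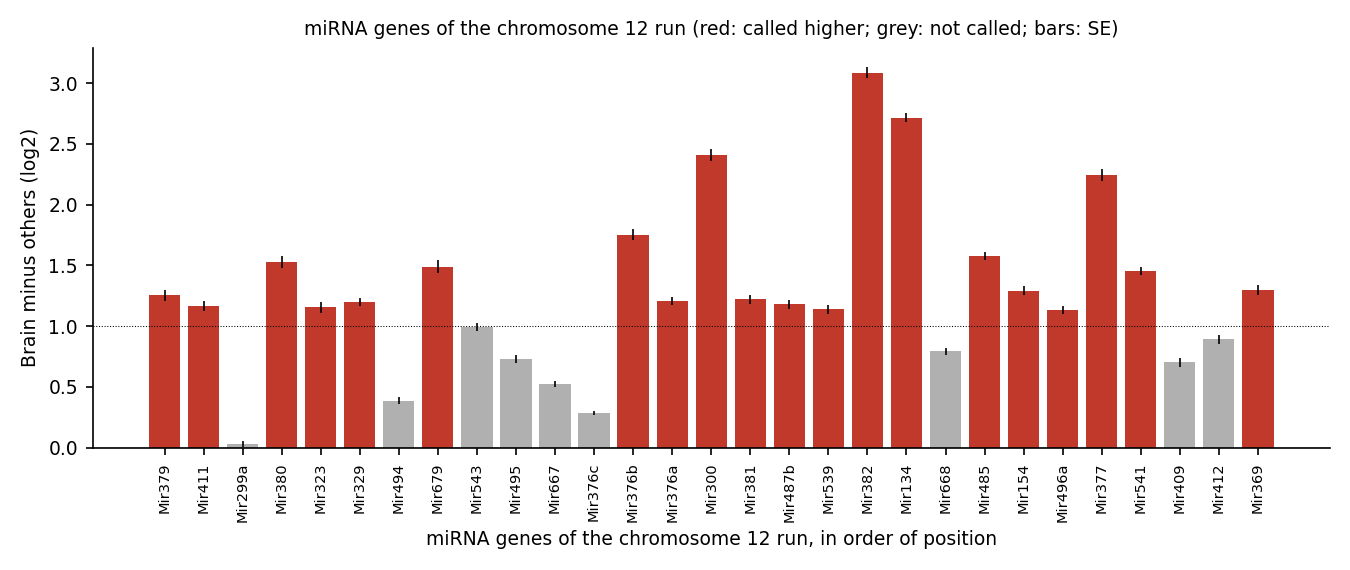
Brain minus the mean of the other tissues (log2, bars with SE) for 29 neighbouring miRNA genes on chromosome 12 in order of position. The 20 genes in red were called higher, Mir382 the most at 3.09, and the 9 in grey lay between 0.03 and 0.99.

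The lowest genes in brain were enzymes and carriers of metabolic organs. Ces1d, a carboxylesterase, had the largest deficit: it ran from 3.90 through 4.89 to 8.10 in brain and from 10.44 to 12.73 elsewhere, a difference of -7.10 ± 0.03. It stood at 11.48 in kidney, 12.22 in liver and 12.41 in lung, and the brain array at 8.10 was WSBxWSB replicate 1, without which the difference was -7.13. Atp6v0d2, a subunit of the proton pump of specialised cells, ran from 2.76 through 3.87 to 4.94 against 8.64 to 11.44 (difference -6.39 ± 0.04). Other genes among the 12 lowest differed in level between the organs. The ascorbate carrier Slc23a1 (-6.33 ± 0.02) had kidney at 12.24 and lung at 8.28, the phosphate carrier Slc34a2 (-6.21 ± 0.05) had lung at 13.13, and the gluconeogenic enzymes Fbp1 (-6.06 ± 0.06) and Pck1 (-5.89 ± 0.06) had lung at 7.72 and 7.59. The remaining members were Kng2, Dpep1, Cyp2e1, Hp, Adh1 and Fmo2, between -6.34 and -5.81. Adh1, alcohol dehydrogenase, also had its highest brain value, 9.28, in WSBxWSB replicate 1.

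Most genes of several metabolic routes were low against the mean of the other tissues. Over all genes tested, 17.1% were called lower and 32.5% were called in either direction. In fatty acid oxidation and ketone synthesis 14 of 14 genes were called lower (median -2.34), from Fabp1 (-4.55) and the peroxisomal enzyme Ehhadh (-3.82) to Hadha (-1.21), and 9 of them had no overlap with other tissues (4.82% of all genes). The median brain signal of the list was 8.64. Amino acid breakdown had 14 of 16 genes lower (median -1.56), led by the tyrosine route enzymes Hpd (-5.71) and Hgd (-5.23), while glycine decarboxylase (Gldc) was at -0.58 and not called. In that list 1 of the 16 genes had no overlap with other tissues, and for Prodh, the proline oxidase, lung (7.81) lay below brain (8.72). Handling of foreign compounds, which covers oxidation as well as conjugation, had 14 of 15 lower (median -2.25). The oxidising enzyme Cyp2e1 (-6.04) and the glutathione transferase Gsta3 (-5.26) led. Gstp1, another transferase, was at -0.36. Genes of shared cell machinery moved little against the mean of the other tissues: 0 of 14 ribosomal protein genes and 1 of 16 oxidative phosphorylation genes were called (Cox7a1, a subunit of muscle and fat, at -1.80, and at -0.94 and not called without kidney). Their medians of -0.39 and -0.23 lay near the -0.12 of all genes. For some oxidative phosphorylation genes single tissues lay further from brain than the mean did. Sdhb stood at 10.94 in brain, 12.28 in kidney and 10.32 in lung, and Cox5a at 10.04, 11.14 and 9.13. The gaps were smaller for the ATP synthase gene Atp5b, at 13.08 in brain, between lung at 12.96 and kidney at 13.45.

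Genes of epithelia, immune cells, matrix and dividing cells completed the low side. For comparison, 17.1% of all genes tested were called lower, and 13.5% were called lower in every cross. All 15 measured epithelial genes were called lower in every cross (median -3.0). Krt8, a keratin of simple epithelia, ran from 5.84 through 6.78 to 8.20 in brain and from 11.14 to 12.75 elsewhere (difference -5.40 ± 0.02), with no overlap. The splicing factor Esrp2 (-5.07 ± 0.02), the keratin Krt18 (-4.45) and the adhesion protein Cdh1 (-4.34) followed. Of 14 genes for antigen presentation 12 were lower (median -2.25). H2-Aa, a class II chain, ran from 4.15 through 4.93 to 6.56 in brain against 7.97 to 11.48 (difference -4.72 ± 0.03, adjusted p = 2.76e-309), and the invariant chain Cd74 stood at -4.56 ± 0.03. H2-DMa, which helps to load class II molecules, was at 0.03 (adjusted p = 0.311) and Nlrc5 at -0.47. Of 13 leukocyte genes 9 were lower and Coro1a, an actin regulator, was higher by 1.54 ± 0.03; its lung level of 9.34 was beside the 9.28 of brain. Matrix genes were lower for 16 of 18 (median -2.11), with Col3a1, a fibrillar collagen, at -3.18, whereas Sparc was at -0.24. In complement and coagulation 6 of 14 were lower, led by Cfb at -5.19, and the microglial chains C1qa (-0.02), C1qb (0.08) and C1qc (-0.31) were not called. Cell cycle genes were lower for 12 of 13 (median -1.58): Cdk1, which drives mitosis, was at -2.12 ± 0.06 and the proliferation marker Mki67 at -1.82 ± 0.08.

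Markers of other cells and organs were looked up as well. All 15 neuron markers and 9 of 15 markers of single brain regions were called higher (medians 6.12 and 1.97), against 15.4% of all genes. Of 7 pituitary hormone genes 0 were called in either direction at the adjusted p and size used here, and of 3 measured red cell genes 2 were lower. Of 10 kidney tubule genes 9 were lower, of 10 lung epithelial genes 10, and of 8 hepatocyte genes 7, with Ttr as the exception. The anion carrier Slc22a6 was at -0.26 and not called: kidney stood at 12.07, but brain at 7.48 was above liver (5.98) and lung (5.12). With kidney left out of the comparison it was 1.91 higher in brain. Pvalb, listed as a muscle gene and also made by fast-spiking interneurons, was higher by 4.10 ± 0.08, at 9.36 to 10.80 on brain arrays against means of 8.60 in kidney, 4.51 in liver and 5.06 in lung; single arrays of other tissues reached 11.34.

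In gene families the brain form and another form often moved apart. The other forms were not all widespread: Fabp1 averaged 12.52 in liver and 6.68 in kidney, and Ckm 9.03 in lung and 5.94 in liver. In 16 families with both forms measured, all 16 brain forms were called higher, and of the other forms 8 were lower, 6 not called and 2 higher. Over all genes tested, 15.4% were higher and 17.1% lower. Snap25 was 7.33 higher and its relative Snap23, a SNARE of most cells, stood at -2.35 ± 0.02. Wide splits were also found between Fabp7 and Fabp1 (5.05 and -4.55), which bind fatty acids, and between the glucose transporters, with neuronal Slc2a3 at 4.72 ± 0.03 and hepatic Slc2a2 at -4.51 ± 0.04. The vesicle SNAREs split likewise, with Vamp2 at 2.82 and Vamp8 at -3.83, as did carnitine palmitoyltransferase (Cpt1c 3.56, Cpt1a -2.25) and glycogen phosphorylase (Pygb 1.39, Pygl -3.79). Pygb was at 0.86 and not called without liver in the comparison. In the motor and kinase families the widespread form stayed near the other tissues: Kif5a was 7.16 higher and Kif5b 0.45, Prkar1b 4.88 and Prkar1a 0.62. Both members were higher for the ankyrins Ank2 (4.55) and Ank3 (2.03) and for the plasma membrane calcium pumps Atp2b2 (5.13) and Atp2b1 (1.71). The families were picked for known brain forms, so their direction is a description.

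Most brain differences held in all 9 crosses. Of the genes called higher 2517 (13.4% of all genes tested) were called higher in each cross, and of those called lower 2543 (13.5%) were called lower in each. Genes that missed a cross were mostly near the threshold: 370 of the 387 higher genes that did so had a difference under 1.5. Among genes with a difference of at least 2, 1694 of 1696 higher and 1259 of 1272 lower genes held in every cross. Single crosses gave 2849 (PWKxPWK) to 3000 (CASTxWSB) higher genes and 3163 (CASTxWSB) to 3371 (WSBxPWK) lower genes. The size of the difference nevertheless varied: an F-test between crosses was passed by 10550 genes (56.1%) at a limma adjusted p under 0.05. The range over crosses was small for most, with a median of 0.43 among higher and 0.48 among lower genes. A range of at least 1 together with the F-test was met by 223 higher and 336 lower genes.

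The 2 genes with a difference of at least 2 that missed a cross on the high side both missed CASTxCAST. Mrap2, an accessory protein of melanocortin receptors, was 3.27 to 3.93 higher in brain in 8 crosses and 0.95 in CASTxCAST. Its brain level in CASTxCAST was 7.31 ± 0.39 (SD, n = 8), just below the means of the other crosses (7.36 to 7.76). Kidney (7.14) and lung (7.26) of that cross stood near its brain level. Klk6, a myelin-associated protease, was 0.75 higher in CASTxCAST and 3.65 in WSBxWSB, with brain means from 5.62 ± 0.37 (n = 8) to 8.49 ± 0.60 (n = 11). Here the brain level itself differed, and the F1 crosses lay between, from 6.69 to 7.94. Slc10a4, a carrier of cholinergic and aminergic vesicles, behaved alike (1.10 in CASTxCAST, 3.02 to 3.97 elsewhere), and Nkain2 stood at 7.93 ± 0.17 in CASTxCAST brain against 10.08 to 10.56. Lpcat2b was high in brain in the crosses with a PWK parent (2.23 to 3.10) and not in the other crosses (0.03 to 0.22). These genes were picked after the values were seen. A sequence variant under an array probe can change the signal of 1 strain; such variants were not examined, and their part in the differences between crosses was not tested.

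**Figure D5:**
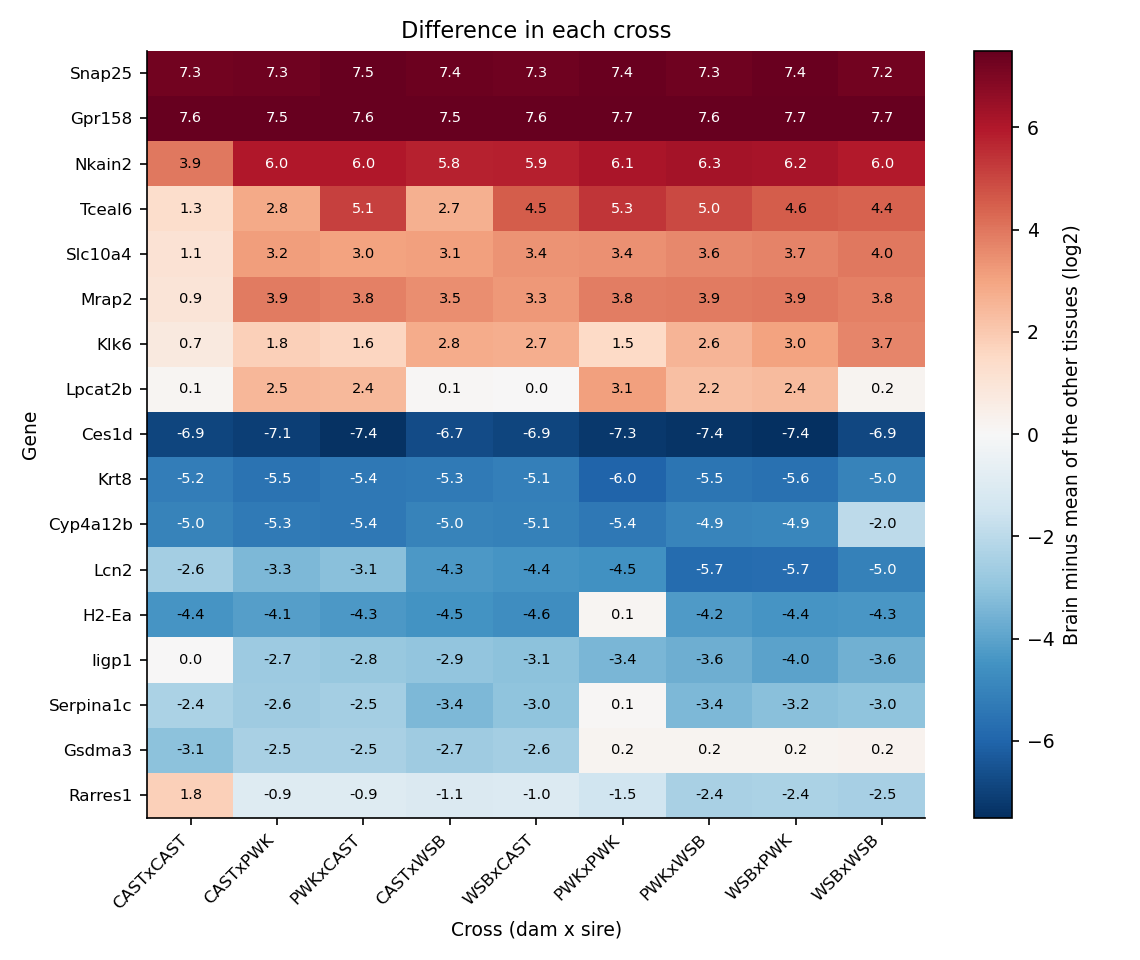
Brain minus the mean of the other tissues (log2, printed and coloured) in each of 9 crosses for 17 genes. Snap25, Gpr158, Ces1d and Krt8 hold in all; H2-Ea and Serpina1c lose the difference in PWKxPWK (0.12 and 0.10), Iigp1 in CASTxCAST (0.01), and Rarres1 turns to 1.81 in CASTxCAST.

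Tceal6, an X-linked gene of the elongation factor A-like family, varied most among brain-high genes, from 1.34 in CASTxCAST to 5.33 in PWKxPWK, and was called in all crosses (F-test adjusted p = 2.56e-54). The other tissues stayed between 3.56 and 5.15. In brain, CASTxCAST stood at 5.75 ± 0.71 (SD, n = 8) and PWKxPWK at 9.72 ± 0.22 (n = 6). Crosses with a CAST dam split by sex: in CASTxPWK the 5 males ran from 4.95 to 6.18 and the 5 females from 8.65 to 9.46, and in CASTxWSB the 3 males ran from 4.75 to 5.35 and the 5 females from 8.11 to 8.53. With the dams reversed the males were as high as the females, at 9.54 to 10.14 in PWKxCAST (n = 4) and 8.74 to 9.60 in WSBxCAST (n = 6). The brain array whose sex genes went against its label is in PWKxCAST, where all arrays were high. Males receive their X chromosome from the dam, so the low brain arrays were those whose X chromosomes all came from CAST. The split by sex was seen after the fact and was not tested. Lgi1, a secreted synaptic protein in the top 12, formed another pattern: brain means were 10.35 to 10.51 in the 4 crosses without a WSB parent and 11.45 to 11.60 in the 5 crosses with one, and its difference from the other tissues stayed between 6.60 and 7.66.

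Among the brain-low genes that varied most, some lost the difference or turned in 1 cross. H2-Ea, the class II E alpha chain, lay between -4.63 and -4.11 in 8 crosses and at 0.12 in PWKxPWK (F-test adjusted p = 1.94e-111). There kidney (5.10), liver (5.35) and lung (5.08) stood at the level of brain (5.30), whereas lung of other crosses reached 10.49 to 11.92. Iigp1, an interferon-induced GTPase, lay between -4.03 and -2.72 except in CASTxCAST (0.01), where liver was at 4.79 against 10.43 to 11.31 elsewhere. Rarres1 was called higher in brain in CASTxCAST (1.81) and lower in 6 crosses, with CASTxCAST liver at 4.69 and other liver means from 10.95 to 11.89. Without liver in the comparison it was at -0.05 and not called, and Gsdma3 at -0.57. Gsdma3, a gasdermin, was lower in all 5 crosses with a CAST parent (-3.09 to -2.45) and at 0.19 to 0.24 in the rest. Serpina1c, a liver protease inhibitor, was at 0.10 in PWKxPWK. Cyp4a12b (-1.99 in WSBxWSB, -5.39 to -4.89 elsewhere) and the iron carrier Lcn2 (-5.74 to -2.56) varied but were lower in every cross. Only 4 genes were called in opposite directions in different crosses: Rarres1, B4galnt2, D7Ertd443e and Myl4.

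By chromosome, the share of genes called higher was largest on X (22.4% of 719), 12 (22.4% of 598) and 18 (22.2% of 442), against 15.4% of all genes, and smallest among autosomes on 17 (10.4% of 886). X had the smallest share called lower, 11.1%, leaving out Y, and chromosome 3 the largest at 22.6%. The miRNA run contributed 20 of the 134 higher genes of chromosome 12. Genes of long non-coding RNAs were called less often in either direction (9.9% higher and 3.83% lower of 313) than protein-coding genes (15.8% and 17.7% of 17894). These shares are descriptions, since neighbouring genes are not independent.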

How the data were processed

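The authors deposited log2 signals per transcript cluster for all 386 arrays. RMA, run in Affymetrix Expression Console, is listed in the submitters' processing notes with no version. Plates, and joint or separate normalisation of the tissues, are not given in the sources used here. RMA scales arrays to one another, which can remove part of a shift of a whole tissue. The table held 35556 clusters. The 21218 with 1 symbol were used, and of several clusters per symbol the one with the highest mean was kept (1386 genes), which left 18820 genes. No filter on low signals was applied, because one on the brain level drops genes that are off in brain.

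A model of 36 cross-by-tissue means was fitted in R 4.3.3 by limma 3.58.1, with an intensity trend in the empirical Bayes step. Brain was contrasted with the mean of kidney, liver and lung over equally weighted crosses, with each tissue, and within each cross. An F-test with 8 degrees of freedom compared the crosses. P-values were adjusted by Benjamini-Hochberg over all genes. Called means an adjusted p under 0.05 and a difference of at least 1 log2 unit. On simulated data for the brain comparison, with 200 of 18820 genes changed by 1.5 or 3 log2 units (50 each way at each size), all 200 were recovered and 0 of 18570 unchanged genes were called. The changes lay clear of the threshold and the unchanged genes had no tissue difference. The simulation therefore checks the code and cannot show how calls near 1 log2 unit behave.

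Same-animal tissues were paired by the labels' animal numbers, and their deviations from the group means had a median r of 0.064 (kidney, 78 pairs), 0.050 (liver, 77) and 0.082 (lung, 74). The members and the 36 gene lists were chosen with earlier results of these data known. Named are the 12 highest and 12 lowest genes called in every cross, the 4 highest and 4 lowest by the smallest of the 3 tissue differences, up to 5 leading and 3 opposite or uncalled members per list, the family pairs, the 8 widest genes over crosses and the genes nearest the threshold; list members at the end of a list, Trh, Crh, Hcrt, Th, Slc6a3, Gpr17, Prodh, Cbln3, Meg3, Rian, Dlk1, the miRNA genes and the brain-high genes that vary between crosses were chosen after their values were seen. Scgb3a2, Cubn, Itgb2, Olfml3, Trem2 and Gpr34 were also chosen after their values were seen. Alternatives covered filters, the animal block, centring, quantile normalisation, cluster choice, sex, leaving out tissues, crosses and single arrays. Arrays limit the precision by their number. For animals of a cross, p-values measure the spread between these animals.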

Additional observations from a re-analysis of the deposited data

Results flagged for a closer look

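In brain groups of 4 to 10 arrays, single arrays stood far from the rest of their group for 10 of 156 combinations of group and gene examined, where chance gives about 1 in 20. PWKxPWK brain replicate 1 was the lowest of 6 for Cplx1 (12.17, the others 12.49 to 12.67), Gria2 (10.67, others 10.86 to 10.96), Ptbp2 (10.18, others 10.51 to 10.60) and Tceal6 (9.31, others 9.70 to 9.93). CASTxWSB brain replicate 4 was the lowest of 8 for Cdh5 (8.53) and Mir382 (5.78, others 6.94 to 7.70), and replicate 1 of the same group for Slc10a4 (6.86, others 7.79 to 8.27). PWKxWSB brain replicate 1 was highest for Pvalb (10.65), PWKxCAST brain replicate 2 lowest for H2-Aa (4.15) and PWKxCAST brain replicate 3 lowest for Mir9-2 (6.89). The values of Mir382 and Slc10a4 stand beside differences from the other tissues of 3.09 and 3.17, and that Mir382 value lay below the 6.70 reached on an array of another tissue.

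The brain difference itself varied between crosses, by the F-test, with a range over the 9 crosses of 4.75 for H2-Ea, 4.31 for Rarres1, 4.04 for Iigp1, 4.0 for Tceal6, 3.48 for Serpina1c, 3.39 for Cyp4a12b, 3.33 for Gsdma3 and 3.19 for Lcn2.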

How the results depend on the processing

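Of 7237 values of 274 named genes over 27 alternatives, 6986 were rated the same. For called genes that meant the same call and direction, and 0 called genes changed sign. For genes not called it meant no call and a move smaller than the brain SD, whatever the sign. Of 63 named genes not called, 40 changed sign in some alternative (93 values). A further 112 values of genes not called moved by the brain SD or more without a call. Calls were lost in some alternative by 26 named genes and gained by 16. Slc22a6 and Kl were not called and became called with the other sign when a tissue was left out (1.91 without kidney and -1.08 without lung). Filters changed the counts most. A filter on the mean of the 4 tissues at the 40th percentile left 1889 genes called higher and 1633 higher in every cross. A filter on the brain mean left 1596 called lower and 1264 lower in every cross, and higher genes then made up 63.6% of the called genes instead of 47.4%. Centring each array on its median moved the median gene from -0.12 to -0.30, with 2597 higher and 3777 lower genes. With the animal as a replicate block 2906 genes were higher and 3223 lower, 2518 and 2533 in every cross. Of the named genes this pairing changed the call of Ky (0.99, lost), 2610301B20Rik and Itgb7 (gained), all at the threshold. Leaving out each cross in turn gave 2889 to 2917 higher and 3218 to 3234 lower genes, and 2520 to 2566 and 2547 to 2631 in the remaining crosses. Leaving out WSBxWSB, PWKxWSB or PWKxPWK brain replicate 1, or the arrays rich in muscle genes, was chosen after seeing the data and gave 2903 to 2910 higher and 3217 to 3225 lower genes. Signals near background limit the size of a difference that can be read for genes with little RNA in a tissue.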
